A study of Mus musculus and Homo sapiens with 81 samples.

Results

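Ptpn2-null B16 cells were compared with control B16 cells under interferon gamma (IFNg) and tumour necrosis factor alpha (TNFa) given together. B16 is a mouse melanoma cell line, here expressing Cas9 and carrying a lentiviral guide RNA. The comparison takes 6 of the 81 RNA-seq libraries of the series by their column labels: 3 of the genotype labelled Ptpn2-null (guide Ptpn2sg3) and 3 of the control genotype (non-targeting guide Bro3), all after 48 h with 100 ng/mL IFNg plus 10 ng/mL TNFa. To test whether the genotype difference under the pair differed from that under other conditions, it was set against the same genotypes under vehicle (PBS with BSA), under 10 ng/mL TNFa and under 100 ng/mL IFNg, with 3 libraries of each genotype per condition. Since 1 guide stands for each genotype, the effect of losing Ptpn2 and any other difference between the 2 guide-bearing populations cannot be told apart. All groups carry Cas9 and a guide. Nothing in the labels says that the replicates came from separate cultures, so the p-values may reflect technical spread alone.

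Ptpn2 encodes a tyrosine phosphatase that removes phosphate from JAK kinases and STAT factors and so limits cytokine signalling. IFNg acts through its receptor, the kinases JAK1 and JAK2 and STAT factors, whose dimers bind GAS elements, while interferon regulatory factors bind ISRE elements. TNFa acts through its receptors on NF-kB and, through RIPK1 and caspase-8, on cell death. In melanoma cells both cytokines are known for raising chemokines and antigen presentation and for slowing growth.

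The 6 libraries held between 4871995 and 6090118 counts, within the range of 3498860 to 6432517 over all 42 B16 libraries. Levels are given as CPM, the read counts of a gene scaled to the library's TMM-adjusted total, and are not corrected for gene length, so they are compared between samples and not between genes. The B16 label was checked against cell type markers: 19 melanocyte genes, none of them at 0 throughout, summed to between 11800 and 12100 CPM in Ptpn2-null libraries and between 21400 and 22400 CPM in control libraries. In bulk libraries, fewer cells with a program and less of its RNA per cell cannot be told apart. Markers of other cell types were low in both genotypes. The 15 leukocyte markers summed to between 1.29 and 2.60 CPM in Ptpn2-null libraries and between 1.25 and 2.35 CPM in control libraries, with Ptprc, Cd3e, Itgam and 6 others at 0 in all 6. The 10 fibroblast markers summed to 18.0 to 25.0 CPM against 21.3 to 23.8 CPM, with Dcn and Thy1 at 0. The 8 endothelial markers summed to 3.94 to 4.97 CPM against 4.34 to 6.19 CPM, with Cdh5 and Kdr at 0, and the 9 epithelial markers to 0.184 to 0.538 CPM against 0.417 to 1.46 CPM, with Epcam, Krt8 and Krt19 at 0. Ptpn2-null replicate 1 stood apart from its group: across genes, its deviation from the group mean followed transcript length with a Spearman correlation of -0.444, while in the other 5 libraries it lay between -0.359 and 0.367. Counts with and without that library are given beside the result.

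Ptpn2 itself was lower in all 3 Ptpn2-null libraries under IFNg+TNFa. It had 13.4, 15.4 and 16.4 CPM in the Ptpn2-null libraries, against 60.3, 60.6 and 60.6 CPM in the control libraries. The groups did not overlap, and the log2 fold change was -2.004 ± 0.10 (SE, n = 3 each; edgeR quasi-likelihood F test, Benjamini-Hochberg adjusted p = 8.2e-23). The SE, here and below, rests on a spread estimated over all 42 B16 libraries and not on the compared libraries alone. A frameshift made by Cas9 need not remove the transcript, and protein was not measured here.

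Under IFNg+TNFa the genotypes differed at 4813 of 11726 genes tested, which is 41.0% (edgeR quasi-likelihood F test, adjusted p under 0.05). Of these, 2377 genes (20.3% of those tested) were higher and 2436 (20.8%) were lower in Ptpn2-null cells. At least 2-fold differences were found for 371 genes that were higher (3.16%) and 470 that were lower (4.01%). Most called differences were thus below 2-fold. Over all tested genes, called or not, the median log2 fold change was -0.009 and the median size of a change was 0.223. The 3 values of each genotype did not overlap at 5293 genes (45.1%). Without Ptpn2-null replicate 1 the test called 4475 genes, 4038 of them shared with the 4813 and all of those with the same sign. On the first principal component of the B16 libraries, which held 63.6% of the variance, the Ptpn2-null libraries under IFNg+TNFa lay between 99.0 and 102.0 and the control libraries between 64.4 and 67.7.

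**Figure D1:**
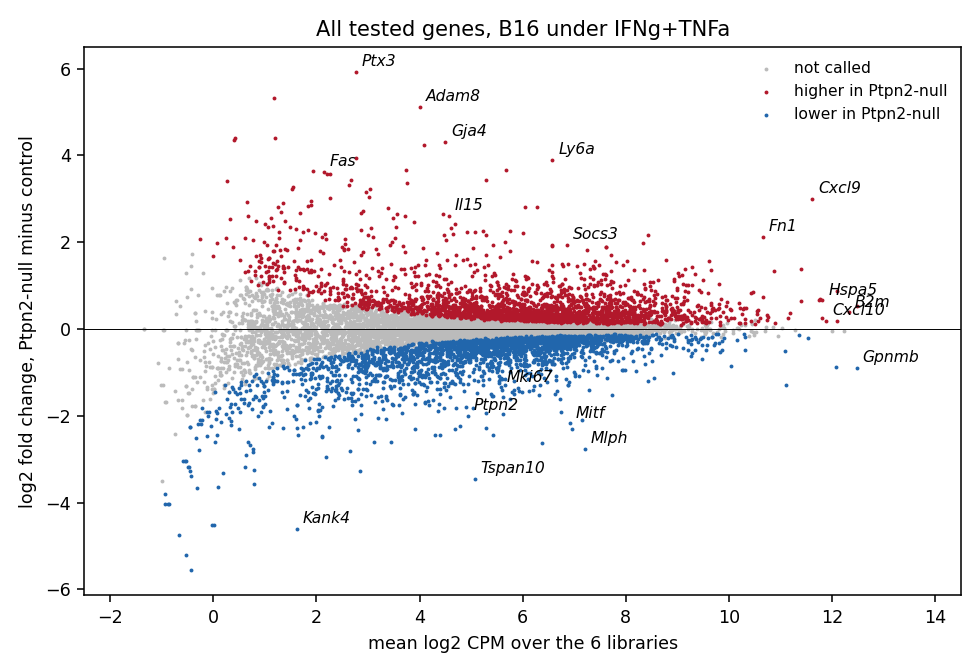
Log2 fold change (Ptpn2-null minus control, vertical axis) against mean log2 CPM over the 6 libraries (horizontal axis) for all 11726 genes tested; red points were higher and blue points lower in Ptpn2-null cells at an adjusted p under 0.05, grey points were not called. Both directions were called in similar numbers (2377 higher, 2436 lower), with Ptx3 and Adam8 among the largest that were higher and Kank4 and Tspan10 among the largest that were lower.

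The 12 genes with the largest differences in the higher direction included Ptx3 and Adam8. Ptx3, a secreted pentraxin of innate immunity, had 45.5, 40.1 and 44.5 CPM in Ptpn2-null libraries, against 0.835, 0.364 and 0.904 CPM in control libraries, a log2 fold change of 5.92 ± 0.26 (edgeR adjusted p = 3.4e-22). Ptx3 was thus near the lower limit of counting in control cells, with 11 counts over the 3 libraries. Adam8, a membrane metalloprotease, had 90.5, 88.1 and 85.4 CPM in Ptpn2-null libraries, against 2.50, 2.55 and 2.53 CPM in control libraries, a log2 fold change of 5.11 ± 0.16 (edgeR adjusted p = 1.1e-32). The 3 Adam8 values of each genotype lay close together, and the groups were far apart. Gja4 (connexin 37), a gap junction protein, differed by 4.32 on the log2 scale, Crabp2, which binds retinoic acid, by 3.93, Slamf8, a surface receptor of the SLAM family, by 3.67 and Emp1, a membrane protein of the PMP22 family, by 3.67. Ly6c1 and Ly6a (Sca-1), 2 GPI-anchored surface antigens, differed by 4.25 and 3.90. Ly6a had 415, 343 and 345 CPM in Ptpn2-null libraries, against 21.1, 25.5 and 26.9 CPM in control libraries. Of 8 Ly6 antigens listed, 7 were in the table and only these 2 passed the filter on low counts. Arhgap8, a GTPase-activating protein, and Slc4a11, a membrane transporter, complete the 12 genes, with 4.39 and 3.64, beside Nos2 and Fas below. Standard errors of genes with few counts can be smaller than their counting error.

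In the lower direction, the largest differences included pigment cell genes. Tspan10, a tetraspanin, had 10.8, 10.2 and 8.83 CPM in Ptpn2-null libraries, against 107, 104 and 116 CPM in control libraries (log2 fold change -3.45 ± 0.09, edgeR adjusted p = 4.0e-35). Mlph (melanophilin), which ties melanosomes to the motor that moves them, had 57.9, 53.7 and 57.4 CPM in Ptpn2-null libraries, against 400, 379 and 372 CPM in control libraries (log2 fold change -2.77 ± 0.06, edgeR adjusted p = 2.9e-40). Neither gene's groups overlapped. Kank4, a cytoskeletal scaffold, had 0.538, 0.401 and 0.368 CPM in Ptpn2-null libraries, against 13.98, 7.82 and 12.1 CPM in control libraries, with a log2 fold change of -4.60 ± 0.39. Its control values ranged widely and its Ptpn2-null libraries held 7 counts in all. Tm4sf1, a membrane protein of the tetraspanin-like L6 family, differed by -3.28, Rapgef3, an exchange factor activated by cyclic AMP, by -2.95, Bfsp2, an intermediate filament protein, by -2.81, Hmcn1, a matrix protein, by -2.48, Htra3, a serine protease, by -2.46 and Itgb3, an integrin subunit, by -2.45. Slc45a2 and Trpm1, described with the pigment genes, and Tg (thyroglobulin) complete the 12.

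Feedback inhibitors of cytokine signalling were higher in Ptpn2-null cells. The gene lists, here and below, were chosen with earlier results of these data known. Their shares beside those of all genes thus describe the lists and are not a test. Of 9 genes listed (SOCS family, Cish and Usp18), 7 were higher, 0 were lower and 2 were not called, against 20.3% of all genes that were higher, and their median log2 fold change was 1.23, against -0.009 over all genes. Socs1, an inhibitor of JAK kinases, had 207, 173 and 171 CPM in Ptpn2-null libraries, against 58.2, 61.1 and 73.8 CPM in control libraries (log2 fold change 1.51 ± 0.09, edgeR adjusted p = 1.4e-20). Socs3, an inhibitor that acts on receptors with gp130, had 249, 206 and 228 CPM in Ptpn2-null libraries, against 57.0, 58.2 and 61.8 CPM in control libraries (log2 fold change 1.95 ± 0.08, edgeR adjusted p = 3.2e-26). Every Ptpn2-null value of both genes lay above every control value. Cish, which limits STAT5 signalling, had 8.78, 8.21 and 9.39 CPM in Ptpn2-null libraries, against 0.626, 1.27 and 1.63 CPM in control libraries (log2 fold change 2.85 ± 0.29). Usp18, which removes ISG15 and blocks the type I interferon receptor, differed by 1.23 ± 0.06, and Socs2 by 2.09 ± 0.61 from 27 counts in Ptpn2-null and 6 in control libraries.

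The 250 bases before the Socs1 start (RefSeq, GRCm38.p6, chr16:10785537-10785786, minus strand, intergenic in the annotation used) are shown because Socs1 is a direct feedback gene of this pathway. Capitals mark matches to the ISRE letters GAAANNGAAA, searched on both strands, which start at -83 and -77 (counted from -1 at the base before the gene's start) and overlap. Of 32851 RefSeq promoter windows of the same 250 bases, 2.98% held such a match. A match is a description of the letters and was not shown to be a site.
Socs1: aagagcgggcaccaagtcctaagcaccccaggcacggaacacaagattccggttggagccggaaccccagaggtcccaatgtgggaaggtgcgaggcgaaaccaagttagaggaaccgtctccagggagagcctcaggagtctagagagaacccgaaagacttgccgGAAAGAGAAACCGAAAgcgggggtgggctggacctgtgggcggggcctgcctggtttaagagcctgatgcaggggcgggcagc

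The signalling genes upstream of these inhibitors did not move in a single direction. Of 18 JAK-STAT genes tested (of 19 listed), 5 were higher, 2 were lower and 11 were not called, with a median log2 fold change of 0.02, where 20.3% of all genes were higher and 20.8% lower. Jak2, a kinase of the IFNg receptor, had 135, 152 and 154 CPM in Ptpn2-null libraries, against 82.4, 71.0 and 68.5 CPM in control libraries (log2 fold change 0.99 ± 0.09, edgeR adjusted p = 1.8e-13). Ifnar2, a type I interferon receptor chain, differed by 0.60, Stat3 by 0.43, Jak1 by 0.41 and Tyk2 by 0.26. The groups of Jak2 did not overlap. Ifngr2, a chain of the IFNg receptor, averaged 139.8 ± 1.90 CPM in Ptpn2-null libraries, against 184 ± 5.48 CPM in control libraries (SD, n = 3 each, with no overlap; log2 fold change -0.40 ± 0.06, edgeR adjusted p = 6.3e-08).

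Among the interferon regulatory and related BATF factors, 6 of 8 tested (of 10 listed) were higher and 0 were lower, with a median log2 fold change of 0.53, where 20.3% of all tested genes were higher and 20.8% lower. Irf1, an early IFNg target and an activator of antigen presentation genes, had 1438, 1413 and 1399 CPM in Ptpn2-null libraries, against 1004, 1014 and 1008 CPM in control libraries (log2 fold change 0.49 ± 0.04, edgeR adjusted p = 3.1e-14). The spread within each genotype was small beside the gap. Irf5 had 222, 215 and 220 CPM in Ptpn2-null libraries, against 77.4, 74.1 and 87.2 CPM in control libraries (log2 fold change 1.46 ± 0.08). Batf3, a partner of JUN factors, had 22.9, 16.6 and 14.4 CPM in Ptpn2-null libraries, against 3.76, 2.18 and 2.35 CPM in control libraries (log2 fold change 2.72 ± 0.24). Batf2 differed by 0.67, Irf7 by 0.56 and Irf2 by 0.47, while Irf3 and Irf8 were not called.

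Chemokines that draw T cells and monocytes were higher in Ptpn2-null cells, by very different amounts. Of 18 listed, 7 passed the filter on low counts. Of those, 6 were higher, 0 were lower and 1 was not called, against 20.3% higher and 20.8% lower over all tested genes. The filter can keep a gene for its counts in a single group. Members near 0 in control cells could then be counted as higher but hardly as lower, here and in the other lists. Cxcl9, a ligand of the chemokine receptor CXCR3 on T cells, had 8513, 9080 and 8833 CPM in Ptpn2-null libraries, against 1150, 1100 and 1074 CPM in control libraries (log2 fold change 2.99 ± 0.06, edgeR adjusted p = 1.6e-38). Its neighbour Cxcl10, a ligand of the same receptor, had 4164, 4096 and 3848 CPM in Ptpn2-null libraries, against 3491, 3585 and 3589 CPM in control libraries (log2 fold change 0.18 ± 0.05, edgeR adjusted p = 0.0018). Both pairs of groups were apart, but the ratio was 7.95 for Cxcl9 and 1.135 for Cxcl10 (Ptpn2-null over control). Cxcl11, the remaining CXCR3 ligand, averaged 909 ± 48.3 CPM in Ptpn2-null libraries, against 349.8 ± 22.1 CPM in control libraries (SD, n = 3 each; log2 fold change 1.38 ± 0.06, edgeR adjusted p = 1.5e-24). Ccl5, which attracts T cells, had 4857, 4102 and 4109 CPM in Ptpn2-null libraries, against 1589, 1661 and 1724 CPM in control libraries (log2 fold change 1.39 ± 0.05, edgeR adjusted p = 2.9e-29). Neither pair of groups overlapped. Ccl2, a monocyte chemokine, had 19.2, 15.6 and 18.6 CPM in Ptpn2-null libraries, against 1.25, 2.002 and 1.99 CPM in control libraries (log2 fold change 3.32 ± 0.25), and Cxcl1, a neutrophil chemokine, differed by 2.10 ± 0.41.

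Cxcl9, Cxcl10 and Cxcl11 lie next to each other on the minus strand of chromosome 5 (GENCODE M21, GRCm38: 92321347 to 92328079, 92346638 to 92348889 and 92359544 to 92365485). The windows of 250 bases before Cxcl9 (chr5:92328080-92328329) and Cxcl10 (chr5:92348890-92349139), both minus strand and taken from RefSeq GRCm38.p6, are shown because the neighbours differed so much in their change. They were searched on both strands for the GAS letters TTCNNNGAA, for the ISRE and for the NF-kB consensus (kB). Capitals mark matches: in Cxcl10 an ISRE at -213 and kB matches at -159 and at -104 and -103, the last 2 overlapping, and in Cxcl9 none. The GAS letters were found in 7.02% and the kB consensus in 7.25% of the 32851 windows. The absence of a match says only that these letters are not in this window.
Cxcl9: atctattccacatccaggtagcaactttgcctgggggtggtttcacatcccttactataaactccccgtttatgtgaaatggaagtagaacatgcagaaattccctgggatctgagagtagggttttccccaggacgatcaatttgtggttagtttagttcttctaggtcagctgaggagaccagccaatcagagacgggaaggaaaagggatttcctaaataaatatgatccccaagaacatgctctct
Cxcl10: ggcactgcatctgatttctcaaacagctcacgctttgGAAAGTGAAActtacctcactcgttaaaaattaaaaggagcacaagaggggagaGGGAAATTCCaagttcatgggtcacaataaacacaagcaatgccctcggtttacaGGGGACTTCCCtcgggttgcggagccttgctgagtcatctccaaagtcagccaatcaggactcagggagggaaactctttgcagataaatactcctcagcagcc

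**Figure D2:**
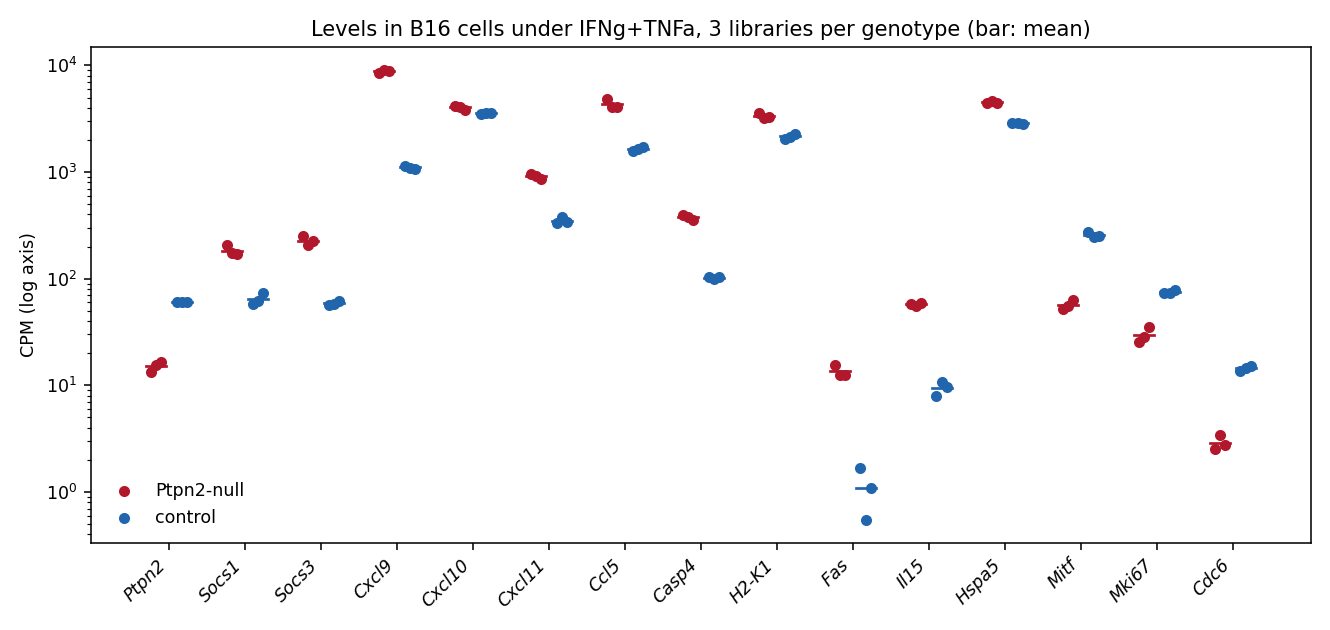
CPM (logarithmic axis) of 15 genes in the 6 B16 libraries under IFNg+TNFa, Ptpn2-null in red to the left of control in blue; each point is a library and the bar is the mean of 3. Cxcl9 stood at 8513 to 9080 CPM in Ptpn2-null libraries, against 1074 to 1150 in control libraries, while the Cxcl10 groups lay close together, and Ptpn2, Mitf, Mki67 and Cdc6 were lower in the Ptpn2-null libraries.

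Genes of MHC class I presentation were higher by modest amounts. Of 19 listed and tested, 13 were higher, 0 were lower and 6 were not called, with a median log2 fold change of 0.33, where 20.3% of all tested genes were higher and 20.8% lower. H2-K1, a class I heavy chain, had 3617, 3229 and 3257 CPM in Ptpn2-null libraries, against 2055, 2154 and 2260 CPM in control libraries (log2 fold change 0.64 ± 0.06, edgeR adjusted p = 3.0e-13). B2m, the shared light chain, had 5957, 5931 and 5633 CPM in Ptpn2-null libraries, against 4586, 4393 and 4476 CPM in control libraries (log2 fold change 0.38 ± 0.04, edgeR adjusted p = 3.3e-10). The groups of both genes were separate. H2-M3, a nonclassical class I chain, differed most, by 1.38 ± 0.18, followed by H2-D1 with 0.66, Tapbpl, a peptide editor, with 0.46, Pdia3 of the loading complex with 0.41 and the peptide transporter chains Tap2 and Tap1 with 0.40 and 0.26. Nlrc5, the class I transactivator, was not called at 0.14 ± 0.07 (edgeR adjusted p = 0.095), but was called at 0.19 without Ptpn2-null replicate 1 or without replicate 2. The strand setting of the counting is not given in the sources used here, so reads of overlapping genes such as Tap1 and Psmb9 and of near-identical class I genes may be split between them.

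Of 10 class II genes listed, 7 were tested, of which 2 were higher, 3 were lower and 2 were not called, with a median log2 fold change of -0.40. With so few genes these counts are close to the shares over all tested genes, 20.3% higher and 20.8% lower. Cd74, the invariant chain, had 264, 218 and 225 CPM in Ptpn2-null libraries, against 180.0, 183 and 203 CPM in control libraries (log2 fold change 0.32 ± 0.10, edgeR adjusted p = 0.0059), and Ctss, the protease that processes it, differed by 0.86 ± 0.20. Ciita, the class II transactivator, had 2.69, 2.60 and 1.66 CPM in Ptpn2-null libraries, against 5.42, 3.46 and 4.52 CPM in control libraries (log2 fold change -0.93 ± 0.32, edgeR adjusted p = 0.015). H2-Aa (-1.18 ± 0.41) and H2-Eb1 (-2.43 ± 0.73, 4 counts in Ptpn2-null against 23 in control libraries) were also lower. Without Ptpn2-null replicate 3, or without control replicate 1, 1 of these 3 genes was called lower instead of 3: Ciita stood at -0.73 and -0.77 and H2-Aa at -0.92 and -1.12. H2-Aa was also not called without control replicate 3, at -1.12, or with the DESeq2 test, at -1.185. With DESeq2, and with only the compared groups in the fit, 2 class II genes were called lower instead of 3.

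The guanylate-binding proteins (GBP) and immunity-related GTPases (IRG), which attack vacuoles of intracellular pathogens, held calls in both directions. Of 18 tested (of 19 listed), 8 were higher, 5 were lower and 5 were not called, with a median log2 fold change of 0.09, where 20.3% of all tested genes were higher and 20.8% lower, so the lower count is near the background. Gbp2 had 6721, 7163 and 6930 CPM in Ptpn2-null libraries, against 4824, 4789 and 4688 CPM in control libraries (log2 fold change 0.54 ± 0.05, edgeR adjusted p = 8.2e-14). Its groups did not overlap. Gbp5 differed by 1.30, Gbp11 by 1.08, Gbp8 by 0.86, Gbp3 by 0.35 and Gbp10 by 0.25. Ifi47, an IRG protein, had 808, 795 and 768 CPM in Ptpn2-null libraries, against 1083, 1104 and 1101 CPM in control libraries (log2 fold change -0.47 ± 0.05, edgeR adjusted p = 1.6e-10). Tgtp1 (-0.23), Gbp7 (-0.22), Irgm1 (-0.20) and Tgtp2 (-0.18) were lower by less. Without control replicate 1, 3 genes instead of 5 were called lower, with Gbp7 at -0.15 and Tgtp2 at -0.14 not called, and Tgtp2 was not called without Ptpn2-null replicate 1 either, at -0.11. Tgtp1 and Tgtp2, and several Gbp genes, are near-identical copies whose counts are uncertain.

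Antiviral interferon-stimulated genes were higher in large part. Of 30 listed and tested, 22 were higher, 0 were lower and 8 were not called, with a median log2 fold change of 0.48, against 20.3% higher and 20.8% lower over all tested genes. Cmpk2, a mitochondrial nucleotide kinase, had 1186, 1429 and 1412 CPM in Ptpn2-null libraries, against 466, 461 and 437 CPM in control libraries (log2 fold change 1.56 ± 0.07, edgeR adjusted p = 6.3e-21). Rsad2 (viperin), an antiviral enzyme that alters nucleotides, had 2855, 3082 and 2987 CPM in Ptpn2-null libraries, against 1192, 1195 and 1152 CPM in control libraries (log2 fold change 1.33 ± 0.06). No value of either gene was shared between the genotypes. The GTPases Mx1 and Mx2, which block virus replication, differed by 1.44 and 1.01, Oasl1 by 1.25, Oas1b by 0.97, Ifit1 by 0.82 and the ubiquitin-like modifier Isg15 by 0.60. Oasl2 and the RNA sensor Ddx58 (RIG-I) were not called, each at 0.00 on the log2 scale.

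All 9 tested PYHIN genes (of 10 listed), which include sensors of cytosolic DNA, were higher, with a median log2 fold change of 1.03, where 20.3% of all tested genes were higher. Pyhin1 had 19.5, 24.8 and 26.0 CPM in Ptpn2-null libraries, against 2.92, 2.18 and 2.35 CPM in control libraries (log2 fold change 3.23 ± 0.22, edgeR adjusted p = 2.9e-16). Ifi205 had 157, 181 and 186 CPM in Ptpn2-null libraries, against 26.3, 26.2 and 21.9 CPM in control libraries (log2 fold change 2.82 ± 0.10, edgeR adjusted p = 4.9e-25). Both groups of values were separate. The remaining 7 differed by between 0.70 (Ifi204) and 1.42 (Pydc4). The genes lie in a cluster of similar sequence, so their counts may be shared in part.

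Surface ligands that T cells and NK cells read were higher in 5 of 8 tested (of 16 listed) and lower in 1, with a median log2 fold change of 0.63, where 20.3% of all tested genes were higher and 20.8% lower. Cd274 (PD-L1), the ligand of the inhibitory receptor PD-1, had 534, 552 and 590.1 CPM in Ptpn2-null libraries, against 365, 363 and 329 CPM in control libraries (log2 fold change 0.67 ± 0.06, edgeR adjusted p = 4.5e-14). Lgals9 (galectin-9), a ligand of TIM-3, had 701, 731 and 721 CPM in Ptpn2-null libraries, against 325, 326 and 342 CPM in control libraries (log2 fold change 1.12 ± 0.05, edgeR adjusted p = 1.3e-25). The genotypes were separate for both ligands. Cd47, the signal that restrains phagocytosis, differed by 0.92, Pvr, a ligand of TIGIT and DNAM-1, by 0.60 and the NKG2D ligand Ulbp1 by 1.497 ± 0.40. Cd276 (B7-H3) was lower, by -0.91 ± 0.25.

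**Figure D3:**
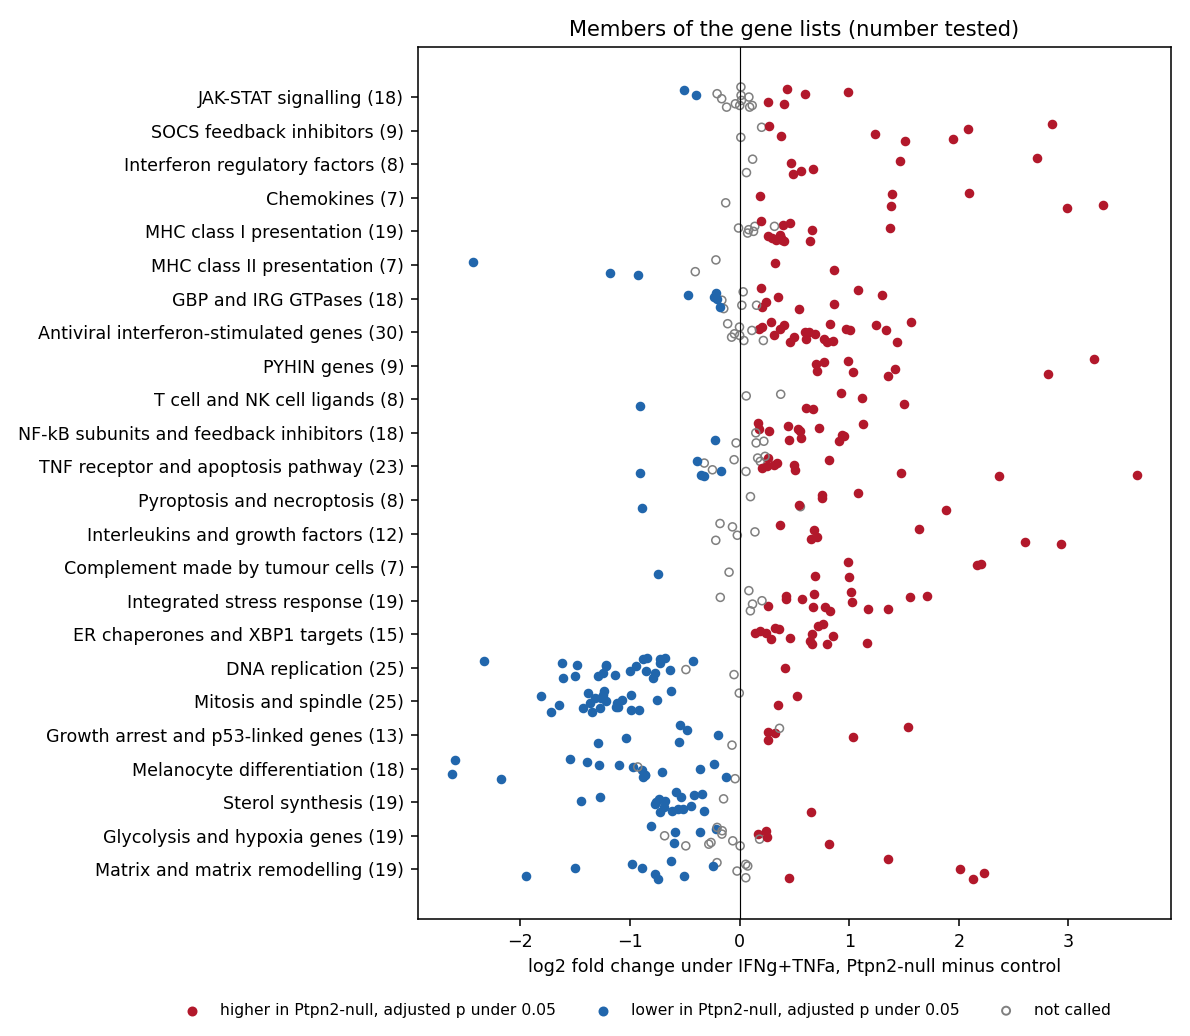
Log2 fold change under IFNg+TNFa (Ptpn2-null minus control, horizontal axis) of each tested member of 24 gene lists, with the number tested in parentheses; filled red and blue points were called higher and lower at an adjusted p under 0.05, open points were not called. The replication, mitosis, melanocyte and sterol lists lie left of 0 for all but a few members, and the PYHIN and ER chaperone lists lie to its right.

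Subunits and feedback inhibitors of NF-kB were higher in 13 of 18 tested genes (of 20 listed) and lower in 1. Their median log2 fold change was 0.45, where 20.3% of all tested genes were higher and 20.8% lower. Relative to IFNg alone, 1 of the 18 had a higher genotype difference under the pair and 1 a lower one. Over all tested genes these shares were 3.38% and 7.67%. Nfkbia, the inhibitor that NF-kB itself induces, had 124, 104 and 96.6 CPM in Ptpn2-null libraries, against 58.0, 71.3 and 66.9 CPM in control libraries (log2 fold change 0.73 ± 0.09, edgeR adjusted p = 2.1e-09). The groups did not overlap. Bcl3, a nuclear cofactor of NF-kB, differed by 1.13 ± 0.13, Nfkbiz by 0.96, the deubiquitinase Tnfaip3 (A20) by 0.94, the ubiquitin ligase Birc3 by 0.91 and Nfkbib by 0.56. The subunit Rela differed by 0.18 and Nfkb1 was not called. The 1 gene called lower, Traf3 (-0.22 ± 0.07), was not called without Ptpn2-null replicate 2 or without control replicate 2, at -0.18 in both.

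In the TNF receptor and apoptosis pathway, 11 of 23 tested genes (of 25 listed) were higher and 5 were lower, with a median log2 fold change of 0.20, against 20.3% higher and 20.8% lower over all tested genes. The count of lower genes is thus at the background. Death ligands and receptors held the largest changes. Fas, a death receptor, had 15.4, 12.6 and 12.5 CPM in Ptpn2-null libraries, against 1.67, 0.546 and 1.09 CPM in control libraries (log2 fold change 3.62 ± 0.30, edgeR adjusted p = 3.4e-14). Tnfsf10 (TRAIL), a death ligand, had 54.8, 70.3 and 74.0 CPM in Ptpn2-null libraries, against 22.95, 27.3 and 21.5 CPM in control libraries (log2 fold change 1.47 ± 0.12). Every Ptpn2-null value lay above the control values in both genes, though Fas rests on 17 counts over the control libraries. Tnf itself differed by 2.36 ± 0.44, with 64 counts in Ptpn2-null and 12 in control libraries. Ripk1, the kinase that sets survival against death downstream of the TNF receptor, had 157, 160 and 156 CPM in Ptpn2-null libraries, against 88.3, 92.4 and 87.9 CPM in control libraries (log2 fold change 0.81 ± 0.06, edgeR adjusted p = 1.5e-16). Casp8, which starts death receptor apoptosis, had 183, 204 and 198 CPM in Ptpn2-null libraries, against 141, 135 and 135 CPM in control libraries (log2 fold change 0.51 ± 0.06). Both were separate between genotypes, and Apaf1, the apoptosome scaffold, differed by 0.50. The survival gene Bcl2 was lower, with 24.7, 36.9 and 39.0 CPM in Ptpn2-null libraries, against 65.1, 65.1 and 57.9 CPM in control libraries (log2 fold change -0.91 ± 0.10, edgeR adjusted p = 2.9e-11). Its relative Bcl2l1 was lower by -0.39, and the death effector Bax by -0.35 with overlapping groups.

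Among genes of pyroptosis and necroptosis, the lytic forms of cell death, 5 of 8 tested (of 13 listed) were higher and 1 was lower, with a median log2 fold change of 0.65, against 20.3% higher and 20.8% lower over all tested genes. Casp4 (caspase-11 in mouse), the sensor of cytosolic lipopolysaccharide, had 395, 383 and 358 CPM in Ptpn2-null libraries, against 103, 100.1 and 104 CPM in control libraries (log2 fold change 1.89 ± 0.07, edgeR adjusted p = 2.3e-29). Gsdmd, the pore protein that it cuts, had 227, 199 and 209 CPM in Ptpn2-null libraries, against 117, 125 and 136 CPM in control libraries (log2 fold change 0.75 ± 0.08, edgeR adjusted p = 1.3e-11). The groups of both genes were separate. Ninj1, which ruptures the plasma membrane late in lytic death, differed by 1.08, Il18, a cytokine released by it, by 0.75 and Mlkl, the necroptosis effector, by 0.54. Dfna5 (gasdermin E) was lower, with 5.02, 9.01 and 7.18 CPM in Ptpn2-null libraries, against 12.7, 14.01 and 12.3 CPM in control libraries (log2 fold change -0.89 ± 0.21).

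The windows before Fas and Casp4 (RefSeq, GRCm38.p6, plus strand) are shown as the genes of these death pathways with the largest changes by fold. The Fas window of 250 bases, chr19:34290409-34290658, held the GAS letters at -93, in capitals. The Casp4 window, chr9:5308599-5308827, was kept to the 229 bases that lie outside the gene in GENCODE M21. It held kB matches at -93 and -92, which overlap, and at -39, in capitals and counted from the RefSeq start.
Fas: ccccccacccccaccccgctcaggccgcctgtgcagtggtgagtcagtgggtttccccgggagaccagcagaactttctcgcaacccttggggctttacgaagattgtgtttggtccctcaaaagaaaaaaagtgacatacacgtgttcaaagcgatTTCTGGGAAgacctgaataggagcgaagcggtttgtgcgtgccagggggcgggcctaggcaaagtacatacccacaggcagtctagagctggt
Casp4: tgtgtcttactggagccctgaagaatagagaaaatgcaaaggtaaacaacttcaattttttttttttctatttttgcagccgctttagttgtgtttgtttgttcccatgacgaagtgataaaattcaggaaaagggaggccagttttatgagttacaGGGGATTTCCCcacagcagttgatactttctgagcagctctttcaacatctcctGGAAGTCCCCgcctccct

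Of the interleukins and growth factors, 7 of 12 tested (of 19 listed) were higher and 0 were lower, with a median log2 fold change of 0.51, where 20.3% of all tested genes were higher. Il15, which sustains NK cells and memory T cells, had 57.9, 55.5 and 59.6 CPM in Ptpn2-null libraries, against 7.93, 10.7 and 9.58 CPM in control libraries (log2 fold change 2.60 ± 0.13, edgeR adjusted p = 5.2e-23). Its groups were separate, and its presenting receptor chain Il15ra differed by 0.68 ± 0.19. Il6 had 3.05, 3.01 and 3.13 CPM in Ptpn2-null libraries, against 0.417, 0.728 and 0 CPM in control libraries (log2 fold change 2.93 ± 0.56), from 49 and 6 counts. The alarmin Il33 differed by 1.64 ± 0.47, Tgfb2 by 0.71 and Csf1, which supports macrophages, by 0.65.

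Among 7 tested genes of nitric oxide and metabolic effectors (of 14 listed), 6 were higher and 0 were lower. Their median log2 fold change was 1.37, where 20.3% of all tested genes were higher. Members near 0 in control cells, such as Nos2, could hardly be counted as lower, which may tilt this share. Nos2, the inducible nitric oxide synthase, had 7.35, 8.21 and 9.94 CPM in Ptpn2-null libraries, against 0.209, 0.182 and 0.181 CPM in control libraries. That is 136 counts against 3, a ratio of 44.8 with a 95% counting interval of 15 to 220, which covers counting error only. Irg1, which makes itaconate, had 59.9, 53.7 and 63.1 CPM in Ptpn2-null libraries, against 9.81, 12.9 and 9.95 CPM in control libraries (log2 fold change 2.43 ± 0.15, edgeR adjusted p = 1.2e-15). The Irg1 groups were far apart. Hmox1, the heme oxygenase, differed by 1.37, the mitochondrial superoxide dismutase Sod2 by 1.15, the prostaglandin synthase Ptges by 1.79 ± 0.45 and the tryptophanyl-tRNA synthetase Wars by 0.77.

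Stress genes of the endoplasmic reticulum (ER) were higher throughout the list. All 15 chaperones and XBP1 targets tested were higher, with a median log2 fold change of 0.64, where 20.3% of all genes were. Hspa5 (BiP), the main ER chaperone, named here after its values were seen, had 4453, 4678 and 4441 CPM in Ptpn2-null libraries, against 2872, 2899 and 2834 CPM in control libraries (log2 fold change 0.66 ± 0.04, edgeR adjusted p = 7.1e-20). Dnajb9, a cochaperone, differed by 1.16, Herpud1, of ER-associated degradation, by 0.85, the secreted factor Manf by 0.79, Sel1l, of the same degradation pathway, by 0.76 and Edem1, which sorts misfolded glycoproteins, by 0.72. The groups of Hspa5 and Herpud1 did not overlap.

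The integrated stress response, which ATF4 carries out when protein synthesis is slowed, was higher in 14 of 19 tested genes (of 20 listed) and lower in 0, with a median log2 fold change of 0.67, where 20.3% of all tested genes were higher. Atf4, also named after its values were seen, had 1090, 1005 and 981 CPM in Ptpn2-null libraries, against 541, 586 and 604 CPM in control libraries (log2 fold change 0.83 ± 0.07, edgeR adjusted p = 4.5e-14). Trib3, a pseudokinase that ATF4 induces, had 473, 424 and 432 CPM in Ptpn2-null libraries, against 150.2, 146 and 156 CPM in control libraries (log2 fold change 1.56 ± 0.10). Nupr1, a stress-induced nuclear protein, had 447, 349 and 348 CPM in Ptpn2-null libraries, against 109.7, 119 and 119 CPM in control libraries (log2 fold change 1.71 ± 0.10). None of these 3 overlapped between genotypes. Atf3 differed by 1.35, Ppp1r15a (GADD34), which restores translation, by 1.17, the amino acid transporter chain Slc3a2 by 1.02 and Ddit3 (CHOP) by 0.57 ± 0.12.

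Proliferation genes were lower in Ptpn2-null cells. Of 25 DNA replication genes, 22 were lower, 1 was higher and 2 were not called, with a median log2 fold change of -0.88, where 20.8% of all genes were lower. Of 25 mitosis and spindle genes, 22 were lower, 2 were higher and 1 was not called, with a median of -1.22. Mki67, which marks cycling cells, had 25.3, 28.7 and 35.2 CPM in Ptpn2-null libraries, against 74.1, 74.1 and 78.1 CPM in control libraries (log2 fold change -1.35 ± 0.09, edgeR adjusted p = 2.1e-17). Cdc6, which licenses replication origins, had 2.51, 3.41 and 2.76 CPM in Ptpn2-null libraries, against 13.8, 14.6 and 15.2 CPM in control libraries (log2 fold change -2.33 ± 0.17, edgeR adjusted p = 1.4e-16). All Ptpn2-null values lay below all control values. Mcm2, a subunit of the replicative helicase, had 59.3, 59.3 and 61.5 CPM in Ptpn2-null libraries, against 182, 185 and 183 CPM in control libraries (log2 fold change -1.61 ± 0.05), and Rrm2, a ribonucleotide reductase subunit, differed by -1.62. Ccna2 (cyclin A), needed in S phase and G2, had 10.6, 12.2 and 12.3 CPM in Ptpn2-null libraries, against 38.2, 42.4 and 42.1 CPM in control libraries (log2 fold change -1.81 ± 0.12). Kif23, of cytokinesis, differed by -1.72, the mitotic kinase Plk1 by -1.64 and the topoisomerase Top2a by -1.43. The spindle genes Tpx2 (0.52 ± 0.06) and Prc1 (0.35 ± 0.07) and the clamp loader subunit Rfc3 (0.41 ± 0.08) were higher, and the kinase Aurka was not called at 0.00 ± 0.08.

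Of growth arrest and p53-linked genes, 5 of 13 tested (of 17 listed) were higher and 6 were lower, with a median log2 fold change of -0.07. Over all tested genes 20.3% were higher and 20.8% lower. Without Ptpn2-null replicate 3, or without control replicate 3, 4 genes were called lower instead of 6. Leaving out 1 library at a time gave 4 to 6 genes called higher. Cdkn1a (p21), the inhibitor of cyclin-dependent kinases, had 893, 819 and 847 CPM in Ptpn2-null libraries, against 849, 894 and 943 CPM in control libraries. These groups overlapped, and the difference of -0.07 ± 0.05 was not called (edgeR adjusted p = 0.28). Gadd45a, a stress-induced growth arrest gene, had 140.1, 130.0 and 125 CPM in Ptpn2-null libraries, against 39.9, 47.7 and 48.6 CPM in control libraries (log2 fold change 1.53 ± 0.09, edgeR adjusted p = 2.3e-20), and Gadd45b differed by 1.03. Trp53inp1, a p53 target, was lower by -1.04 ± 0.07.

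Pigment cell genes were lower in Ptpn2-null cells. Of 18 melanocyte differentiation genes tested (of 19 listed), 16 were lower, 0 were higher and 2 were not called, with a median log2 fold change of -0.91, where 20.8% of all tested genes were lower. Mitf, the transcription factor that governs the lineage, had 52.0, 55.3 and 63.3 CPM in Ptpn2-null libraries, against 273, 245 and 252 CPM in control libraries (log2 fold change -2.17 ± 0.07, edgeR adjusted p = 1.1e-32). Slc45a2, a melanosome transporter, had 31.7, 39.9 and 28.3 CPM in Ptpn2-null libraries, against 224, 194 and 196 CPM in control libraries (log2 fold change -2.62 ± 0.07, edgeR adjusted p = 7.1e-35). Trpm1, a melanocyte ion channel, had 3.76, 2.80 and 3.31 CPM in Ptpn2-null libraries, against 21.5, 19.5 and 19.7 CPM in control libraries (log2 fold change -2.60 ± 0.15). All 3 genes were separate between the genotypes. Tyr, the first enzyme of melanin synthesis, differed by -0.97 ± 0.12, Dct, a later one, by -1.29, Rab27a, of melanosome transport, by -1.55 and the melanosome protein Gpnmb by -0.89. Sox10, a factor above Mitf, differed by only -0.12 ± 0.05 (edgeR adjusted p = 0.038), with overlapping groups, and the receptor Mc1r was not called at -0.04.

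Sterol synthesis genes were lower in 17 of 19 tested and higher in 1, with a median log2 fold change of -0.58, where 20.8% of all tested genes were lower. Cyp51, which demethylates lanosterol, had 84.9, 86.3 and 89.1 CPM in Ptpn2-null libraries, against 158, 143 and 144 CPM in control libraries (log2 fold change -0.77 ± 0.06, edgeR adjusted p = 2.6e-17). Its groups did not overlap. Nsdhl, another enzyme of the pathway, differed by -0.76 and the early enzyme Hmgcs1 by -0.73. Hsd17b7 was the gene that was higher, with 61.1, 68.7 and 77.7 CPM in Ptpn2-null libraries, against 53.2, 41.1 and 38.2 CPM in control libraries (log2 fold change 0.65 ± 0.11).

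The comparison with IFNg alone asked whether adding TNFa altered the genotype difference. The 2 genotype differences share no library, and their difference was tested as an interaction. It was called at 1295 genes, 11.0% of those tested (edgeR quasi-likelihood F test, adjusted p under 0.05): for 396 (3.38%) the log2 fold change was higher under the pair than under IFNg, and for 899 (7.67%) it was lower. At least 2-fold interactions numbered 34 (0.290%) and 178 (1.52%), and the median over all genes was -0.016. Without Ptpn2-null replicate 1 under the pair, 1229 genes were called. Without the 3 libraries whose deviation followed transcript length most, Ptpn2-null replicate 1 among them, 597 genes were higher and 954 lower, so the higher share of the calls was 38.5% in place of 30.6%.

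The CXCR3 ligands and Ccl5 all had a smaller genotype difference under the pair. Cxcl10 averaged 3246 ± 14.3 CPM in Ptpn2-null and 1200 ± 16.4 CPM in control cells under IFNg (SD, n = 3 each), a log2 difference of 1.44. Under the pair it averaged 4036 ± 166 CPM in Ptpn2-null and 3555 ± 55.8 CPM in control cells, so the control cells came close to the Ptpn2-null cells, and the interaction was -1.25 ± 0.07 (edgeR adjusted p = 3.7e-20). Cxcl9 averaged 106.7 ± 4.13 CPM in Ptpn2-null and 7.02 ± 0.379 CPM in control cells under IFNg, and its interaction was -0.93 ± 0.14 (edgeR adjusted p = 2.0e-06). Cxcl11 averaged 23.2 ± 1.19 CPM in Ptpn2-null and 1.60 ± 0.657 CPM in control cells under IFNg, with an interaction of -2.42 ± 0.23. For both genes the level under the pair was far higher in either genotype, while the ratio between the genotypes was lower. The interaction of Ccl5 was -0.45 ± 0.11 and that of Casp4 was -0.44 ± 0.13. Of the 7 chemokines tested 4 had a lower genotype difference under the pair, where 7.67% of all genes did.

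Antiviral genes had the same direction of interaction, with 16 of 30 lower and 1 higher, and PYHIN genes had 6 of 9 lower and 0 higher. Of the GBP and IRG list 7 of 18 were lower and 0 were higher, where 7.67% of all tested genes were lower and 3.38% higher. Ifi205 averaged 40.6 ± 2.94 CPM in Ptpn2-null and 0.641 ± 0.321 CPM in control cells under IFNg. Its interaction of -3.11 ± 0.33 was the lowest among the values given here. Ly6a and Ly6c1 were also called lower. Their interactions are not given, because a group held 3 or fewer counts or had counts in a single library. Ifit1 had an interaction of -0.41 ± 0.09. MHC class I genes had 2 higher and 2 lower of 19. For H2-K1 the genotype difference was 0.64 under the pair and 0.62 under IFNg, and for Cd274 it was 0.67 under the pair and 0.71 under IFNg.

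**Figure D4:**
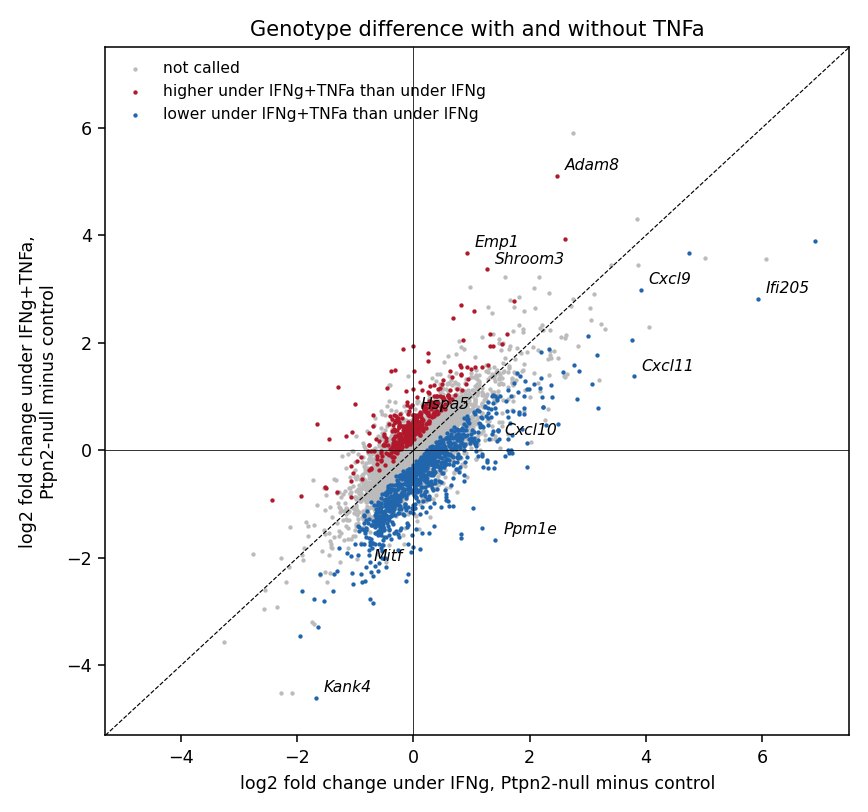
Genotype log2 fold change (Ptpn2-null minus control) under IFNg+TNFa (vertical axis) against that under IFNg (horizontal axis) for 11092 genes with a mean of at least 1 log2 CPM over the 12 libraries; red and blue points had a higher (393) or lower (887) difference under the pair at an adjusted p under 0.05, and the dashed line marks equal differences. Cxcl9, Cxcl10, Cxcl11 and Ifi205 fall below the line on its higher side, Mitf and Kank4 below it on the lower side, and Adam8, Emp1 and Hspa5 above it; fitted values of genes close to 0 in a group depend on the prior count.

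Some feedback inhibitors and most ER genes went the other way, with 2 of the 9 feedback inhibitors higher under the pair and 0 lower. Socs3 averaged 160.8 ± 5.36 CPM in Ptpn2-null and 64.2 ± 3.87 CPM in control cells under IFNg, and 228 ± 21.8 CPM in Ptpn2-null and 59.0 ± 2.53 CPM in control cells under the pair, an interaction of 0.62 ± 0.12 (edgeR adjusted p = 1.3e-04). Socs1 had an interaction of 0.51 ± 0.13 (edgeR adjusted p = 0.0041). Of the 15 ER chaperones and XBP1 targets, 13 had a higher genotype difference under the pair and 0 a lower one, where 3.38% of all genes had a higher one. Hspa5 averaged 2417 ± 6.60 CPM in Ptpn2-null and 2419 ± 32.5 CPM in control cells under IFNg, a log2 difference of 0.00 ± 0.04, so its interaction of 0.66 ± 0.06 (edgeR adjusted p = 3.7e-13) was as large as its difference under the pair. Herpud1 had an interaction of 0.88 ± 0.12. Of the integrated stress response list 5 of 19 were higher and 0 were lower, with Atf4 at 0.55 ± 0.10 and Trib3 at 0.73 ± 0.15.

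The genes with the largest higher interactions included Emp1, with 2.76 ± 0.29, Adam8 with 2.63 ± 0.51, and Batf3 with 1.89 ± 0.42. Adam8 averaged 4.69 ± 0.163 CPM in Ptpn2-null and 0.835 ± 0.185 CPM in control cells under IFNg, so it was higher in Ptpn2-null cells without TNFa as well. Shroom3, an actin-binding protein, had 2.09 ± 0.54, Mcf2l, a guanine nucleotide exchange factor, 2.08 ± 0.49 and Hspa1b, a heat shock chaperone, 1.95 ± 0.32. Tmem74, with 2.49 ± 0.44, was higher in Ptpn2-null cells under the pair with overlapping groups and lower under IFNg by -1.31. Ppp1r16b, with 2.16 ± 0.38, was not called under the pair (0.50 ± 0.26, edgeR adjusted p = 0.13) and was lower under IFNg by -1.66.

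Most mitosis genes had a more negative genotype difference under the pair than under IFNg. Of 25 mitosis genes 20 had a lower genotype difference under the pair than under IFNg and 3 a higher one, and of 25 replication genes 12 had a lower and 2 a higher one, where 7.67% of all genes had a lower one. Cdc6 averaged 29.2 ± 0.804 CPM in Ptpn2-null and 47.2 ± 2.99 CPM in control cells under IFNg, a log2 difference of -0.69, and its interaction was -1.63 ± 0.20 (edgeR adjusted p = 1.3e-08). Mki67 averaged 198 ± 20.2 CPM in Ptpn2-null and 357 ± 12.7 CPM in control cells under IFNg, and its interaction was -0.49 ± 0.11. Both genes were thus lower in the Ptpn2-null cells under either treatment. Mitf averaged 260.1 ± 11.95 CPM in Ptpn2-null and 460.3 ± 14.1 CPM in control cells under IFNg, with an interaction of -1.35 ± 0.09 (edgeR adjusted p = 9.7e-18). Of 18 melanocyte genes 6 had a lower and 2 a higher difference under the pair. Bcl2 was higher in Ptpn2-null cells by 0.26 under IFNg and lower by -0.91 under the pair, an interaction of -1.17 ± 0.13. Kank4 had an interaction of -2.93 ± 0.49, Ppm1e, a protein phosphatase, of -3.08 ± 0.30, Dhrs3, a retinal reductase, of -2.46 ± 0.28 and 2310057J18Rik of -2.63 ± 0.41. The last 3 changed sign, being higher in Ptpn2-null cells under IFNg (1.41 for Ppm1e and 0.83 for Dhrs3) and lower under the pair (-1.67 for Ppm1e and -1.64 for Dhrs3).

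**Figure D5:**
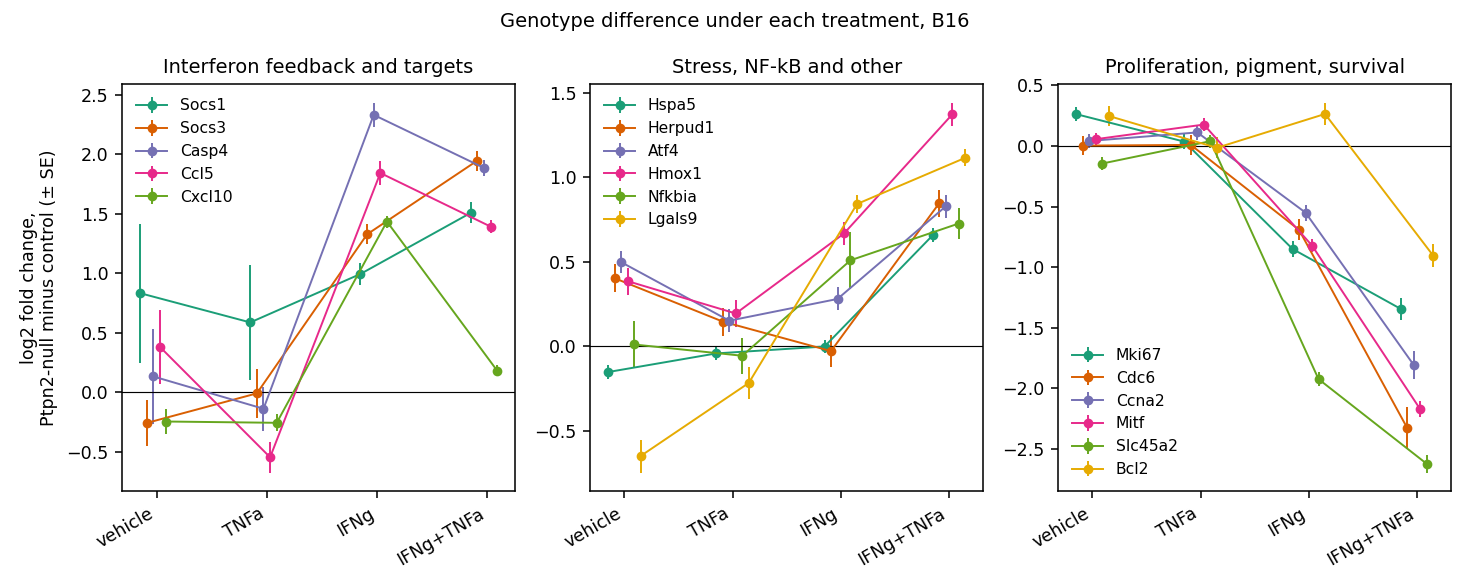
Genotype log2 fold change (Ptpn2-null minus control, vertical axis) of 17 genes in B16 cells under vehicle, TNFa, IFNg and IFNg+TNFa; points are edgeR estimates from 3 libraries per genotype and condition, bars are SE, and lines join the same gene. Cxcl10 stands at 1.44 under IFNg and 0.18 under the pair, Hspa5 is above 0 under the pair alone of the 4 conditions (0.66), and Mitf stands at -0.82 under IFNg and -2.17 under the pair.

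Set against TNFa alone, the genotype difference under the pair was called different at 3059 genes, 26.1% of those tested (1366, or 11.6%, higher and 1693, or 14.4%, lower, of which 267, or 2.28%, and 449, or 3.83%, by at least 2-fold). Set against vehicle it was called different at 3079 genes, 26.3% (1285, or 11.0%, higher and 1794, or 15.3%, lower, of which 233, or 1.99%, and 422, or 3.60%, by at least 2-fold). These 2 interactions followed transcript length across genes with a Spearman correlation of -0.185 and -0.197, against -0.063 for the interaction with IFNg and -0.049 for the genotype difference itself, and the part of length in them was not tested beyond the fits with its trend removed. Of 25 mitosis genes, 22 had a lower genotype difference under the pair than under TNFa and 22 than under vehicle. Of the 18 NF-kB genes 12 and 11 had a higher one, against 1 in the comparison with IFNg alone. Mki67 averaged 945 ± 4.603 CPM in Ptpn2-null and 788 ± 41.5 CPM in control cells under vehicle, where it was higher in Ptpn2-null cells by 0.26, and 791 ± 13.6 CPM in Ptpn2-null and 772 ± 38.2 CPM in control cells under TNFa. Its level was thus lower in both genotypes under the pair than under either condition. Mitf averaged 730.4 ± 35.5 CPM in Ptpn2-null and 703 ± 10.0 CPM in control cells under vehicle, a difference of 0.06 that was not called, and Nfkbia differed by 0.01 under vehicle and by -0.06 under TNFa. Some stress genes already differed under vehicle: Atf4 was higher in Ptpn2-null cells by 0.50 ± 0.07, Trib3 by 1.11 ± 0.12 and Herpud1 by 0.40 ± 0.08, while Hspa5 was lower by -0.15 ± 0.04 and Lgals9 by -0.65 ± 0.10. Relative to vehicle, 6 of the 19 integrated stress response genes had a higher genotype difference under the pair and 4 a lower one. Cxcl9 was at 0 CPM in both genotypes under vehicle, and Fas was at 0 CPM in both under TNFa.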

How the data were processed

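Per the labels' protocols, RNA was made into poly(A)-selected, directional, paired-end libraries. Per the submitters' processing notes, the tools were bcl2fastq 2.17.1.14, Trimmomatic 0.33, Bowtie2 2.2.4, HTSeq 0.6.1p1 and DESeq2, and the mouse build was mm10. The sources used here give neither their roles nor the strand setting and annotation of the counting. The authors deposited raw read counts per gene (23336 genes, 42 B16 libraries), and no column was left unmapped.

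The counts were fitted with edgeR 4.0.16 (R 4.3.3) over all 14 B16 groups of 3: low counts removed by filterByExpr (11726 genes kept), TMM scaling, robust quasi-likelihood F tests and Benjamini-Hochberg adjustment with a threshold of 0.05 over all tested genes. Each SE was taken from the F statistic, as |log2 fold change| over its root. The common biological coefficient of variation was 0.0521. Interactions for single genes are given only against IFNg alone, because many induced genes were near 0 under vehicle and TNFa. DESeq2 1.42.0 was an alternative. A fold against 3 or fewer counts over a group is given as a ratio with a counting interval.

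The members and gene lists were chosen with earlier results of these data known. The text names the 12 largest changes per direction with a mean of at least 1 log2 CPM, up to 6 called members per list and direction, and fixed key genes. A few genes that the rule would name are not reported here. Members given as not called, and a few others such as Hspa5 and Atf4, were chosen after their values were seen. Of 519 list symbols, 505 matched as written and 13 by an older symbol. Transcript lengths (GENCODE M21) were found for 99.1% of tested genes. Promoter windows and their motif shares come from RefSeq GRCm38.p6.

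Same-numbered replicates of the genotypes deviated from their group means with correlations of -0.314, -0.009 and -0.187, so no pairing by number was seen. The deviations followed transcript length in opposite directions in replicate 1 (-0.444 in Ptpn2-null, 0.324 in control) and replicate 3 (0.367 in Ptpn2-null, -0.359 in control). Such opposite trends could hide pairing, so these correlations cannot exclude it. Replicates differed by more than sampling noise, with chi-square per degree of freedom between 1.77 and 5.17, and none was a duplicate.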

Additional observations from a re-analysis of the deposited data

Results flagged for a closer look

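For each result here the genotype difference (Ptpn2-null minus control) under IFNg+TNFa differed from that under another condition, by an interaction tested with edgeR. Numbers of genes were 1295 against IFNg, 3059 against TNFa and 3079 against vehicle. Against IFNg, the difference was higher under the pair for Emp1 (2.76 ± 0.29), Adam8 (2.63 ± 0.51), Tmem74 (2.49 ± 0.44), Ppp1r16b (2.16 ± 0.38), Shroom3 (2.09 ± 0.54), Mcf2l (2.08 ± 0.49), Hspa1b (1.95 ± 0.32), Batf3 (1.89 ± 0.42), Socs3 (0.62 ± 0.12) and Socs1 (0.51 ± 0.13), in log2 units with SE.

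It was lower under the pair for Ifi205 (-3.11 ± 0.33), Ppm1e (-3.08 ± 0.30), Kank4 (-2.93 ± 0.49), 2310057J18Rik (-2.63 ± 0.41), Dhrs3 (-2.46 ± 0.28) and Cxcl11 (-2.42 ± 0.23). Smaller interactions in the same direction were those of Mitf (-1.35 ± 0.09), Cxcl10 (-1.25 ± 0.07), Cxcl9 (-0.93 ± 0.14), Mki67 (-0.49 ± 0.11), Ccl5 (-0.45 ± 0.11), Casp4 (-0.44 ± 0.13) and Ifit1 (-0.41 ± 0.09).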

How the results depend on the processing

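No total of genes called over the whole table moved by more than 1.5 times under any alternative run, and none of the 239 named values changed direction. The genotype difference was called at 4813 genes with the design as described, at 4802 with RLE size factors, 4745 with no filter on low counts, 4416 with DESeq2, 5106 with the length trend removed and 3844 with only the compared groups in the fit. Leaving out 1 library at a time gave 4228 to 4475. No pairing by replicate number was seen, and the fit with the replicate number as a block called 4793 genes, 4759 of them shared. Without the 3 libraries that followed transcript length most, an alternative chosen after the data were seen, 4910 were called. The interaction with IFNg was called at 1295 genes, and at 1123 to 1551 under the alternatives, and its higher calls moved by over 1.5 times, to 597 (with 954 lower) without those 3 libraries, from 396 (with 899 lower); the corresponding ranges were 2603 to 3254 around 3059 for TNFa and 2745 to 3203 around 3079 for vehicle. Of the 239 named values, 15 changed their call under at least 1 alternative, mostly when 1 library was left out, and 5 low-count genes (Socs2, Ulbp1 and H2-Eb1 among them) had no value when only the compared groups were fitted.

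Depth, at most 6090118 counts per library, limits genes with few counts, such as Nos2, Il6 and H2-Eb1.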

Other observations

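Of 19 tested genes of the extracellular matrix (of 24 listed), 5 were higher and 9 were lower in Ptpn2-null cells under IFNg+TNFa, with a median log2 fold change of -0.21. Over all tested genes 20.3% were higher and 20.8% lower, so the higher count is near the background. Fn1 (fibronectin) had 2964, 3258 and 3846 CPM in Ptpn2-null libraries, against 778, 799.9 and 731 CPM in control libraries (log2 fold change 2.13 ± 0.09, edgeR adjusted p = 1.6e-20). Timp1, a metalloprotease inhibitor, had 111, 95.8 and 94.4 CPM in Ptpn2-null libraries, against 25.7, 24.8 and 24.6 CPM in control libraries (2.01 ± 0.11). Both genes were separate between genotypes. Thbs1 (thrombospondin) differed by 1.35 and Col6a1 by 2.23 ± 0.38, while Postn (periostin) was lower, by -1.50 ± 0.12, and Timp2 by -0.74. Relative to IFNg alone, 9 of the 19 had a lower genotype difference under the pair and 0 a higher one, where 7.67% of all tested genes had a lower one.

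Complement genes were higher in 5 of 7 tested (of 14 listed) and lower in 1, with a median log2 fold change of 0.99, against 20.3% higher and 20.8% lower over all tested genes. C1s, a protease of the classical pathway, had 743, 732 and 730.2 CPM in Ptpn2-null libraries, against 154, 171 and 164 CPM in control libraries (2.17 ± 0.06, edgeR adjusted p = 1.2e-33). C3, the central component, had 51.6, 52.3 and 56.5 CPM in Ptpn2-null libraries, against 10.2, 14.2 and 10.3 CPM in control libraries (2.20 ± 0.15). C4b was lower, by -0.74 ± 0.09. Of 19 glycolysis and hypoxia genes tested, 4 were higher and 5 were lower, the 5 becoming 9 without control replicate 2. The counts 4 and 5 are near the shares over all tested genes (20.3% and 20.8%). Hk2 (hexokinase 2) differed by 0.81 ± 0.07 and Ldha (lactate dehydrogenase A) by -0.81 ± 0.07. Of 15 immediate early and ERK feedback genes tested, 5 were higher and 3 were lower, also near those shares, with Junb at 0.90 and Fosl2 at 0.81 against Dusp4 at -1.30 and Myc at -0.93, and relative to IFNg alone 5 had a lower genotype difference under the pair, where 7.67% of all tested genes did.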
